A study of Mus musculus with 8 samples.

Results

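The chemokines and their receptors were examined in the uterus at gestation day (GD) 3.5, with and without Nr2f2 in Pgr-expressing cells. Genes were chosen by symbol alone: every gene whose symbol starts with Ccl, Cxcl, Xcl, Cx3cl, Ccr, Cxcr, Xcr, Cx3cr or Ackr followed by a number, with Cxcl15 left out. This rule took 61 of the 24963 genes of the table, 38 of them ligands and 23 receptors, and used no measured value.

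RNA-seq of whole uterine tissue gave 4 libraries from Nr2f2 f/f and 4 from Nr2f2 d/d females of the strain C57B6/J. Both groups carried the floxed Nr2f2 allele on both chromosomes. In Nr2f2 d/d, Cre had also been knocked into 1 Pgr allele (Pgr Cre/+), so Nr2f2 was removed from cells that express Pgr and stayed intact in other cells, while the controls carried no Cre and kept both Pgr alleles. The females were 8 weeks old at mating by the labels, and 2 to 3 months old by the methods of the study. They were mated with vasectomized males, so that no embryo was present at GD3.5. Libraries are numbered as replicates in the labels, which do not say that each came from a separate mouse, so p-values measure the spread between these libraries.

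Chemokines are small secreted proteins that direct the migration of leukocytes through G protein-coupled receptors. They are named by the spacing of their first cysteines (CC, CXC, C and CX3C), and many receptors bind several ligands. Atypical receptors bind chemokines without classical G protein signaling and remove or transport them. In the uterus around implantation, chemokines are known for their part in placing NK cells, macrophages and other leukocytes in the endometrium.

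The deleted gene checked the labels: Nr2f2 was at 21.8 to 25.7 FPKM (fragments scaled to exon length and to the library total) in the Nr2f2 f/f libraries and at 6.90 to 9.74 in the Nr2f2 d/d libraries, a log2 fold change of -1.39 ± 0.118 (SE, limma, adjusted p = 0.00549). Depth, recovered from the smallest values of short genes, was 61450000 to 92550000 fragments per library. The labelled tissue was checked by summed markers. Smooth muscle markers summed to 1099 to 1501 FPKM in Nr2f2 f/f, and 846 to 2091 for Nr2f2 d/d. The epithelial and the stromal markers did not move together. Krt8 and Krt19 were higher in Nr2f2 d/d without overlap (108 to 122 and 170 to 208 FPKM for Krt8, 38.9 to 93.8 and 126 to 206 for Krt19), while Krt18, Epcam, Cdh1 and Foxa2 overlapped, with log2 fold changes from -0.02 to 0.30. The 6 stromal markers summed to 770 to 886 FPKM in Nr2f2 f/f and to 816 to 1631 in Nr2f2 d/d, so the groups overlapped. Of these, Col1a1 was at 119 to 222 and 314 to 1141 FPKM. The other 5, split off after the values were seen, summed to 564 to 767 and, without overlap, to 459 to 502. Much of this sum was Vim, at 276 to 497 and 204 to 301 FPKM. Vim, Pdgfra, Hoxa10, Hoxa11 and Pgr each overlapped between the groups, and Pgr had a log2 fold change above 0 (0.48). In bulk tissue, fewer cells of a type and less RNA per cell cannot be told apart.

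In this comparison, which asks how loss of Nr2f2 affected the uterine chemokine system, 5 of the genes tested were higher in Nr2f2 d/d at the threshold of the study's methods (unadjusted p under 0.05 and a change of at least 1.4-fold): the receptor Cxcr6 and the ligands Ccl3, Ccl4, Cxcl9 and Cxcl16. The ligand Cxcl12 and its atypical receptor Ackr3 were lower at that threshold. Log2 fold changes of these 7 genes ran from -0.73 to 1.34 on the log2(FPKM + 0.5) scale, with 4 libraries in each group. None of them passed an adjusted p under 0.05, where Cxcr6 came nearest with 0.0527 (limma, Benjamini-Hochberg over 14323 genes).

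Of the 61 genes, 55 were detected in at least 1 library and 34, namely 22 ligands and 12 receptors, reached the mean of 0.5 FPKM needed for the test. The 7 genes past the methods' threshold were 20.6% of the 34 tested, beside 8.8% of all 14323 genes; 5 were higher, where 4.7% of all genes were, and 2 were lower, where 4.1% of all genes were. Cxcl9 reached the filter only through the Nr2f2 d/d libraries, and without it 6 of 33 genes passed the methods' threshold and 4 of 33 had groups that did not overlap. The same 7 genes had an unadjusted p under 0.05, which is also 20.6% of those tested and is near the 21.2% of all genes. At an adjusted p under 0.05 the count was 0 of 34, beside 2.62% of all genes. That count became 1 with median-ratio scaling or quantile normalization (Cxcr6), without Nr2f2 f/f replicate 3 (Ccl3) and without Nr2f2 d/d replicate 3 (Ackr3), and the count of 7 fell to 4 without Nr2f2 f/f replicate 1. The groups did not overlap for 5 of the 34 genes, or 14.7%, beside 15.4% of all genes. All 5 were higher in Nr2f2 d/d, a direction in which 5.49% of all genes were separated, and 0 were lower, beside 9.91% of all genes.

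The fitted log2 fold change was above 0 for 23 of the 34 genes (67.6%), beside 46.7% of all genes tested. Its median was 0.19, beside -0.02 over all genes, with 0.29 for the ligands and 0.06 for the receptors, and 0.12 over all 55 genes detected. Leaving out Nr2f2 f/f replicate 1 brought this median to 0.06, leaving out Nr2f2 d/d replicate 4 to 0.09 and leaving out Nr2f2 f/f replicate 4 to 0.11. Counted library by library, 9, 16, 19 and 7 of the 34 genes lay above their own median in the Nr2f2 f/f libraries, in the order of their replicate numbers, and 23, 26, 17 and 19 did so in the Nr2f2 d/d libraries. Nr2f2 f/f replicates 1 and 4 were thus low for most of these genes, and Nr2f2 d/d replicates 1 and 2 high.

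**Figure D1:**
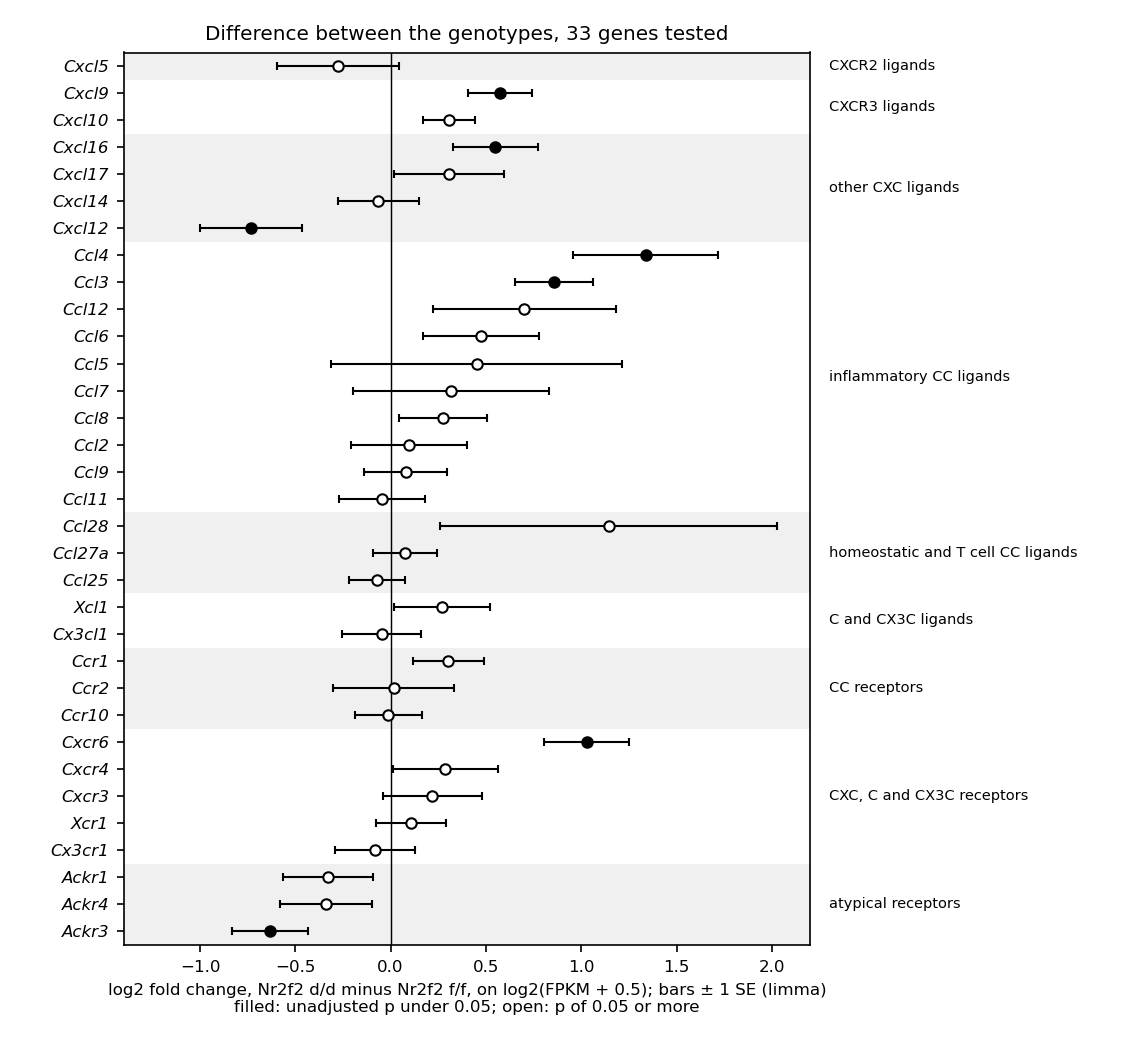
Log2 fold change (Nr2f2 d/d minus Nr2f2 f/f, on log2(FPKM + 0.5)) of 33 chemokine and receptor genes tested, grouped by role. Points are limma estimates and bars ± 1 SE from 4 libraries in each group. The 7 filled points had an unadjusted p under 0.05: Ccl4 (1.34), Cxcr6 (1.03), Ccl3 (0.86), Cxcl9 (0.57) and Cxcl16 (0.55) lie right of 0, Ackr3 (-0.63) and Cxcl12 (-0.73) left of it.

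Levels, compared on the FPKM scale, were uneven across the family. Cxcl17, a mucosal chemoattractant of epithelia, had the highest mean over the 8 libraries at 66.0 FPKM. Ccl8, an inflammatory CC ligand, followed at 53.7 and Cxcl14, a constitutive ligand of epithelium and stroma, at 37.1. These 3 ligands held 45.7% of the summed FPKM of the family. Cxcl12 (19.7), Xcl1 (19.0) and Ccr2 (18.7) came next and lay within each other's spread, and Ccr2 was the receptor with the highest mean level. The sum over all genes of the family was 319, 357, 355 and 256 FPKM in the Nr2f2 f/f libraries and 376, 368, 303 and 410 in the Nr2f2 d/d libraries, so the groups overlapped.

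**Figure D2:**
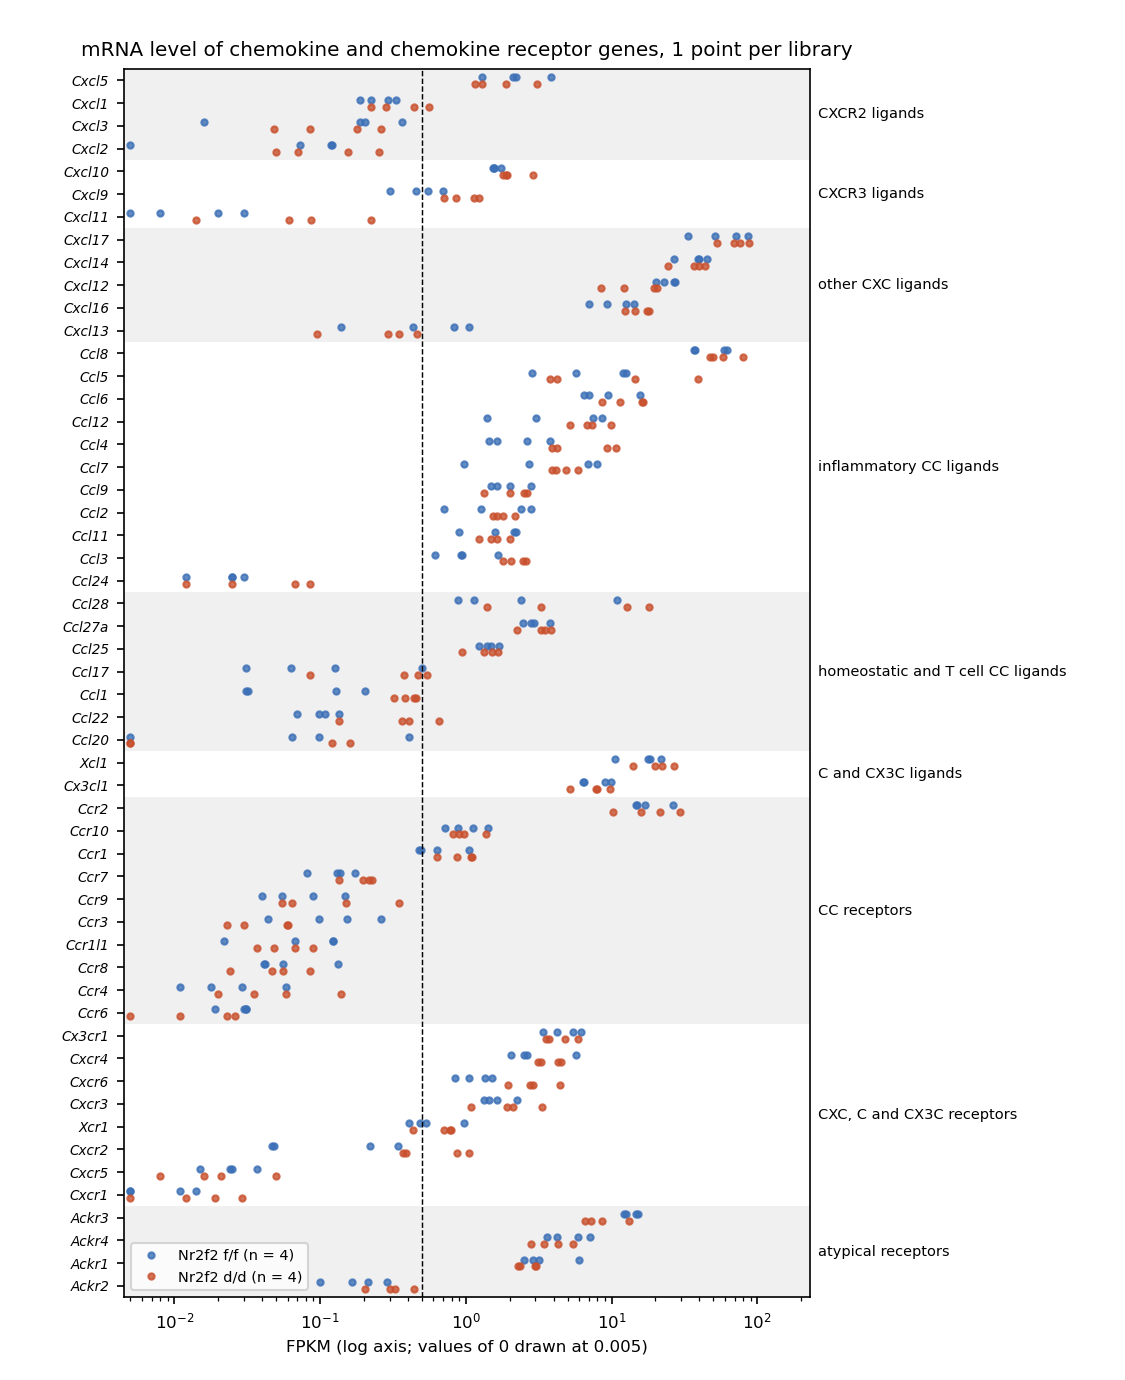
FPKM of 54 detected chemokine and receptor genes in each of the 8 libraries on a log axis, grouped by role, with values of 0 drawn at 0.005. The dashed line marks the mean of 0.5 FPKM that a gene needed to be tested, and levels run from below 0.1 to the 33.6 to 88.3 FPKM of Cxcl17.

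The CXCR2 ligands, which attract neutrophils, were low. Cxcl5, the one tested, was at 2.10, 1.28, 3.86 and 2.22 FPKM in Nr2f2 f/f and at 1.16, 1.30, 3.08 and 1.89 in Nr2f2 d/d. The groups overlapped, with replicate 3 the highest in both, and the log2 fold change was -0.28 ± 0.319 (SE, limma, adjusted p = 0.654). It was -0.50 without Nr2f2 d/d replicate 3 and -0.05 without Nr2f2 f/f replicate 3. Cxcl1, Cxcl3 and Cxcl2 had means under 0.5 FPKM and were not tested. Cxcl1 ran from 0.189 to 0.333 FPKM in Nr2f2 f/f and from 0.222 to 0.561 in Nr2f2 d/d, and Cxcl3 from 0.0160 to 0.367 and from 0.0480 to 0.260.

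The interferon-inducible ligands of CXCR3, a receptor of activated T and NK cells, were higher in Nr2f2 d/d without overlap in both genes tested, and 1 of the 2, Cxcl9, passed the methods' threshold. Cxcl9 had a mean just under 0.5 FPKM in Nr2f2 f/f and was tested because of its mean in Nr2f2 d/d, so its direction had a part in its being tested. Cxcl9 (chr5:92321347-92328079, mm10, minus strand) was at 0.300, 0.548, 0.693 and 0.453 FPKM in Nr2f2 f/f and at 0.858, 1.24, 0.713 and 1.14 in Nr2f2 d/d. The lowest Nr2f2 d/d library, replicate 3, lay just above the highest control, also replicate 3. The means were 0.499 ± 0.165 (SD, n = 4) and 0.986 ± 0.242, 1.98 times as high in Nr2f2 d/d, with a log2 fold change of 0.57 ± 0.169 (SE, limma, adjusted p = 0.110). The exact permutation p was 0.0286, the smallest that 4 against 4 libraries can give. Without Nr2f2 f/f replicate 1 or with 1 added before the log2, the change of Cxcl9 was under 1.4-fold and it left the threshold.

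Cxcl10 (chr5:92346638-92348889, mm10, minus strand) was at 1.54, 1.55, 1.55 and 1.74 FPKM in Nr2f2 f/f and at 1.90, 1.91, 2.90 and 1.79 in Nr2f2 d/d. Nr2f2 d/d replicate 3 stood above the rest, and the other 3 mutant libraries lay close above the controls. The log2 fold change was 0.31 ± 0.137 (SE, limma, adjusted p = 0.246), so Cxcl10 did not pass either threshold. Without Nr2f2 d/d replicate 3 the change was 0.18. Of the exon bases of Cxcl10, 5.9% are shared with Art3. Cxcl11, the third ligand, lay at 0 to 0.0300 FPKM in Nr2f2 f/f, and 0.0140 to 0.222 for Nr2f2 d/d, under the filter, and 41.7% of its exon bases are shared with Gm2673. The receptor of these ligands, Cxcr3, overlapped between the groups, at 1.33 to 2.24 and 1.09 to 3.33 FPKM.

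Promoters were searched on both strands for the core motif of nuclear receptors such as NR2F2 (AGGTCA or GGGTCA), for the STAT motif TTCNNNGAA, and for an interferon response and an NF-kB motif. The motifs were allowed to overlap. Sequences came from RefSeq for GRCm38.p6 and ran from 250 bases before to 50 after each start. They held 52 promoters of 45 genes of the family, and Ccl4 and Cxcl16 were not among these. AGGTCA was in 15 of the 52 promoters (28.8%), beside 16.3% of all 32851 promoters, and GGGTCA in 7 (13.5%), beside 13.7%. TTCNNNGAA was in 7.69% beside 8.3%, the interferon response motif in 5.77% beside 3.44% and the NF-kB motif in 57.7% beside 50.8%. A match is a description of the letters and no evidence of binding. The 250 bases before the start of Cxcl9 (chr5:92328080-92328329) and Cxcl10 (chr5:92348890-92349139) are shown because these neighbouring genes were both higher without overlap. They are given 5′ to 3′ on the minus strand, and capitals mark the nuclear receptor motif in both and, nearer the 5′ end of the Cxcl10 sequence, the interferon motif.
Cxcl9: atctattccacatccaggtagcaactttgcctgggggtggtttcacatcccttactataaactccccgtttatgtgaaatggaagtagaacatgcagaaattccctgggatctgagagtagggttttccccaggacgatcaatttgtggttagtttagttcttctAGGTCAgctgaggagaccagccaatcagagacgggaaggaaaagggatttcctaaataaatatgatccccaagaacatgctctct
Cxcl10: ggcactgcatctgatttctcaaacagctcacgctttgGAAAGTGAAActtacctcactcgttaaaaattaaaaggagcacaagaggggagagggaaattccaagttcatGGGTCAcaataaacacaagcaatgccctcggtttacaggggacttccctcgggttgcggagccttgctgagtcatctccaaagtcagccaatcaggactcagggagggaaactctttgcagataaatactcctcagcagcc

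Of the other CXC ligands, Cxcl16 was higher and Cxcl12 lower at the methods' threshold, and Cxcl14 and Cxcl17 did not pass it. Cxcl16 (chr11:70453983-70459984, mm10), a membrane-bound ligand that is also a scavenger receptor, was at 6.99, 14.4, 12.6 and 9.31 FPKM in Nr2f2 f/f and at 17.5, 14.5, 18.2 and 12.5 in Nr2f2 d/d. Nr2f2 d/d replicate 4 lay below 2 of the controls, so the groups overlapped, and Nr2f2 f/f replicate 1 was the lowest library. The means were 10.8 ± 3.30 (SD, n = 4) and 15.7 ± 2.68, with a log2 fold change of 0.55 ± 0.222 (SE, limma, adjusted p = 0.210). It kept an unadjusted p under 0.05 in 3 of the 8 fits that left out 1 library, those without Nr2f2 f/f replicate 2 or 3 or Nr2f2 d/d replicate 4. Of its exon bases, 18.3% are shared with Zmynd15.

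Cxcl12 (chr6:117168535-117181367, mm10, plus strand), a stromal and endothelial ligand that holds and attracts leukocytes and stem cells, was at 27.1, 26.8, 22.8 and 20.2 FPKM in Nr2f2 f/f and at 12.1, 20.5, 8.49 and 19.5 in Nr2f2 d/d. Nr2f2 d/d replicates 1 and 3 were far below the controls, while replicate 2 lay just above the lowest control. The log2 fold change was -0.73 ± 0.267 (SE, limma, adjusted p = 0.177), and the unadjusted p stayed under 0.05 in 5 of the 8 fits that left out 1 library, the exceptions being Nr2f2 f/f replicates 1 and 2 and Nr2f2 d/d replicate 1. Cxcl17 was at 86.0, 71.0, 51.0 and 33.6 FPKM in Nr2f2 f/f and 88.3, 75.6, 53.1 and 69.7 in Nr2f2 d/d, with a log2 fold change of 0.31 ± 0.287 (SE). Cxcl14 ran from 26.8 to 45.4 FPKM in Nr2f2 f/f and from 24.5 to 43.9 in Nr2f2 d/d, with a log2 fold change of -0.06 ± 0.214 (SE) whose sign turned when 1 library was left out. Both overlapped between the groups (limma, adjusted p = 0.576 and 0.890).

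Among the inflammatory CC ligands, 9 of the 10 tested had a log2 fold change above 0, and 2, Ccl3 and Ccl4, passed the methods' threshold. Both are leukocyte attractants made by NK cells, T cells and macrophages. Ccl3 (chr11:83647844-83649355, mm10, minus strand) was at 0.921, 0.617, 1.67 and 0.947 FPKM in Nr2f2 f/f and at 2.48, 2.59, 1.79 and 2.04 in Nr2f2 d/d. The groups did not overlap, and the highest control, replicate 3, lay close below the lowest mutant library, also replicate 3. The means were 1.04 ± 0.448 (SD, n = 4) and 2.22 ± 0.376, with a log2 fold change of 0.86 ± 0.205 (SE, limma, adjusted p = 0.0696). Without Nr2f2 f/f replicate 3 it was 1.04 (limma, adjusted p = 0.042). The 250 bases before its start (chr11:83649379-83649628, GRCm38.p6, minus strand, 5′ to 3′) hold 1 AGGTCA, in capitals, and are shown because Ccl3 was the ligand with the smallest p.
Ccl3: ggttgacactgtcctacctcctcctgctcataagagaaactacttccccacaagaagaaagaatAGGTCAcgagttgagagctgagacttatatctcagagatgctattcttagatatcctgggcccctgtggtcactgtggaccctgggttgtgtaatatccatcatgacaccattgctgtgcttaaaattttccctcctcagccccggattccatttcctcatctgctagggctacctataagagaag

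Ccl4 (chr11:83662584-83664683, mm10, plus strand) was at 1.63, 1.45, 3.81 and 2.61 FPKM in Nr2f2 f/f and at 3.88, 10.7, 4.25 and 9.29 in Nr2f2 d/d. Nr2f2 d/d replicates 2 and 4 were far above the rest, while replicates 1 and 3 lay just above the highest control. The means were 2.38 ± 1.08 (SD, n = 4) and 7.03 ± 3.48, with a log2 fold change of 1.34 ± 0.379 (SE, limma, adjusted p = 0.101). Leaving out any 1 library kept the unadjusted p of Ccl3 and of Ccl4 under 0.05.

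The other inflammatory CC ligands tested did not pass the methods' threshold. Ccl5, an attractant released by activated T and NK cells, was at 12.0, 12.7, 5.73 and 2.85 FPKM in Nr2f2 f/f and at 4.24, 14.4, 3.80 and 39.1 in Nr2f2 d/d. Nr2f2 d/d replicate 4 was above the sum of the other 3 mutant libraries, and without it the log2 fold change went from 0.45 ± 0.764 (SE, limma, adjusted p = 0.775) to -0.19. Ccl6, a macrophage ligand, was at 6.46, 6.98, 15.7 and 9.42 FPKM and at 16.5, 16.3, 8.66 and 11.4, with a log2 fold change of 0.47 ± 0.304 (SE, adjusted p = 0.402 in limma). Ccl8 was at 36.9, 62.1, 58.9 and 37.3 and at 47.3, 58.6, 49.4 and 79.3, with 0.27 ± 0.230 (SE, adjusted p = 0.527 in limma). Ccl6 and Ccl8 overlapped between the groups. The monocyte attractants Ccl2, Ccl7 and Ccl12, named after their values were seen, had the same order among the controls, lowest in Nr2f2 f/f replicate 2 and highest in replicate 3. Ccl7, for example, was at 2.71, 0.975, 7.95 and 6.90 FPKM in Nr2f2 f/f and at 3.91, 5.89, 4.17 and 4.91 in Nr2f2 d/d, so the controls spanned the mutant libraries.

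Of the homeostatic and T cell CC ligands, 3 were tested and 0 passed the methods' threshold. Ccl28, a mucosal epithelial ligand, was at 0.889, 2.38, 10.8 and 1.14 FPKM in Nr2f2 f/f and at 18.0, 3.26, 12.8 and 1.41 in Nr2f2 d/d. Its values fell into high and low libraries within each group, and the log2 fold change of 1.14 had an SE of 0.885 (limma, adjusted p = 0.488). It was 0.64 without Nr2f2 d/d replicate 1 and 1.79 without Nr2f2 f/f replicate 3. Ccl27a ran from 2.49 to 3.76 FPKM in Nr2f2 f/f and from 2.25 to 3.83 in Nr2f2 d/d, and Ccl25 from 1.22 to 1.68 and from 0.940 to 1.66 (limma, adjusted p = 0.833 and 0.817). Ccl19, Ccl21a, Ccl21b, Ccl21c and Ccl27b, and the eosinophil ligand Ccl26, were listed at 0 in all 8 libraries. Several of these have near-identical copies in the mouse genome whose reads can be lost in counting, so a 0 tells nothing about their transcripts.

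The 21 detected genes under the filter were also fitted with no filter on low values. Of these, 3 passed the methods' threshold, all higher in Nr2f2 d/d (Ccl1, Ccl22 and Cxcr2). With 0.1 in place of 0.5 added before the log2, 4 were higher (these and Cxcl11) and 1, Ccr3, lower. These 5 were named after their values were seen. Over all 21070 genes of these fits, 1320 passed with no filter and 1983 with 0.1 added as well. Ccl1, a T cell product, was at 0.0310, 0.129, 0.203 and 0.0320 FPKM in Nr2f2 f/f and at 0.385, 0.444, 0.320 and 0.458 in Nr2f2 d/d. The groups did not overlap (exact permutation p = 0.0286), and with no filter on low values the log2 fold change was 0.60 (limma, adjusted p = 0.0402). With 0.1 added it was 1.42 (limma, adjusted p = 0.0553). Of the 3 values of Ccl1 under 30 fragments, 0 came out as whole fragments. The exon length used here may therefore not be the one behind its FPKM. Ccl22, a ligand of CCR4 made by dendritic cells and macrophages, was at 0.0700 to 0.135 FPKM in Nr2f2 f/f, and 0.134 to 0.658 for Nr2f2 d/d, where replicate 4 was at the level of the controls, with a log2 fold change of 0.53 with no filter and 1.17 with 0.1 added (limma, adjusted p = 0.146 and 0.120). For Cxcl11 they were 0.20 and 0.68 (limma, adjusted p = 0.306 and 0.251).

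The C and CX3C ligands did not pass the methods' threshold. Xcl1, an NK and T cell ligand that attracts dendritic cells, was at 10.6, 17.9, 21.8 and 18.5 FPKM in Nr2f2 f/f and at 19.9, 22.1, 14.0 and 26.9 in Nr2f2 d/d, with a log2 fold change of 0.27 ± 0.253 (SE, limma, adjusted p = 0.575). Of its exon bases, 18.7% are shared with Gm20743. Cx3cl1, a membrane-bound ligand of epithelium and endothelium, ran from 6.38 to 9.86 FPKM and from 5.20 to 9.76, with -0.05 ± 0.206 (SE, adjusted p = 0.919 in limma). Both genes overlapped between the groups.

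Among the receptors, Cxcr6 was the one higher in Nr2f2 d/d at the methods' threshold. Cxcr6 (chr9:123806475-123811760, mm10, plus strand) is carried by T, NK and NKT cells and binds CXCL16. It was at 0.844, 1.05, 1.51 and 1.36 FPKM in Nr2f2 f/f and at 4.46, 1.96, 2.75 and 2.90 in Nr2f2 d/d. The groups did not overlap, and Nr2f2 d/d replicate 1 was the highest library. The means were 1.19 ± 0.301 (SD, n = 4) and 3.02 ± 1.05, 2.54 times as high in Nr2f2 d/d, with a log2 fold change of 1.03 ± 0.222 (SE, limma, adjusted p = 0.0527). Median-ratio scaling gave a limma adjusted p of 0.0498 and quantile normalization 0.0476. The unadjusted p stayed under 0.05 in 8 of 8 fits that left out 1 library. The sequence before its start (chr9:123806227-123806476, GRCm38.p6, plus strand, 5′ to 3′) is shown for comparison with the ligands above, as it holds neither the nuclear receptor nor the interferon motif.
Cxcr6: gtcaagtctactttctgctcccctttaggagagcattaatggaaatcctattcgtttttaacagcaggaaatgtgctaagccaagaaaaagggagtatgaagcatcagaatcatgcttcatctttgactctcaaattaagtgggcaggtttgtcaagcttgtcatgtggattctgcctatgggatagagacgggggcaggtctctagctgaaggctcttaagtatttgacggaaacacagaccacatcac

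Some T and NK cell markers moved with these genes. Of the 9 markers of that list that were tested, 9 had a log2 fold change above 0, beside 46.7% of all genes. Of the same 9, 6 (66.7%) passed the methods' threshold, beside 8.8% of all genes, and 5 (55.6%) did not overlap between the groups, beside 15.4%. The T cell markers Cd3d and Cd3e had means under 0.5 FPKM in Nr2f2 f/f and were tested through Nr2f2 d/d, and without them these counts were 7, 4 and 3 of 7. An adjusted p under 0.05 (limma) was found for Cd3d and for Gzmb, a granule protease of cytotoxic cells, and held in 4 and 2 of the 8 fits that left out 1 library. Gzma, another granule protease, was at 6.46 to 13.3 FPKM in Nr2f2 f/f and at 22.4 to 149.6 in Nr2f2 d/d, with a log2 fold change of 2.40 (limma, adjusted p = 0.0517), and Prf1, the pore-forming perforin, had one of 1.06 (limma, adjusted p = 0.157). The 11 listed markers in the table, 0 of them at 0, summed to 67.1 to 88.3 FPKM in Nr2f2 f/f and to 104 to 402 in Nr2f2 d/d. Without Gzma and Gzmb, a choice made after the values were seen, the other 9 summed to 35.8 to 54.0 and to 30.6 to 122, with Nr2f2 d/d replicate 3 below all controls. Ncr1, Klrb1c and Nkg7, the 3 tested markers that did not pass the methods' threshold, overlapped between the groups (limma, adjusted p of 0.661 or more). Nr2f2 d/d replicate 4 was the highest in both sums and in Ccl5, while Cxcr6 was highest in replicate 1 and Cxcl9 and Ccl4 in replicate 2. Ptprc, which marks all leukocytes, was at 11.2 to 18.2 FPKM in Nr2f2 f/f, and 8.14 to 18.7 for Nr2f2 d/d. Macrophage and monocyte markers summed to 233 to 487 and 385 to 664 FPKM, with 10 of 11 above 0. The part of these cells in the values of Cxcr6, Cxcl9, Cxcl16, Ccl3 and Ccl4 was not tested.

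**Figure D3:**
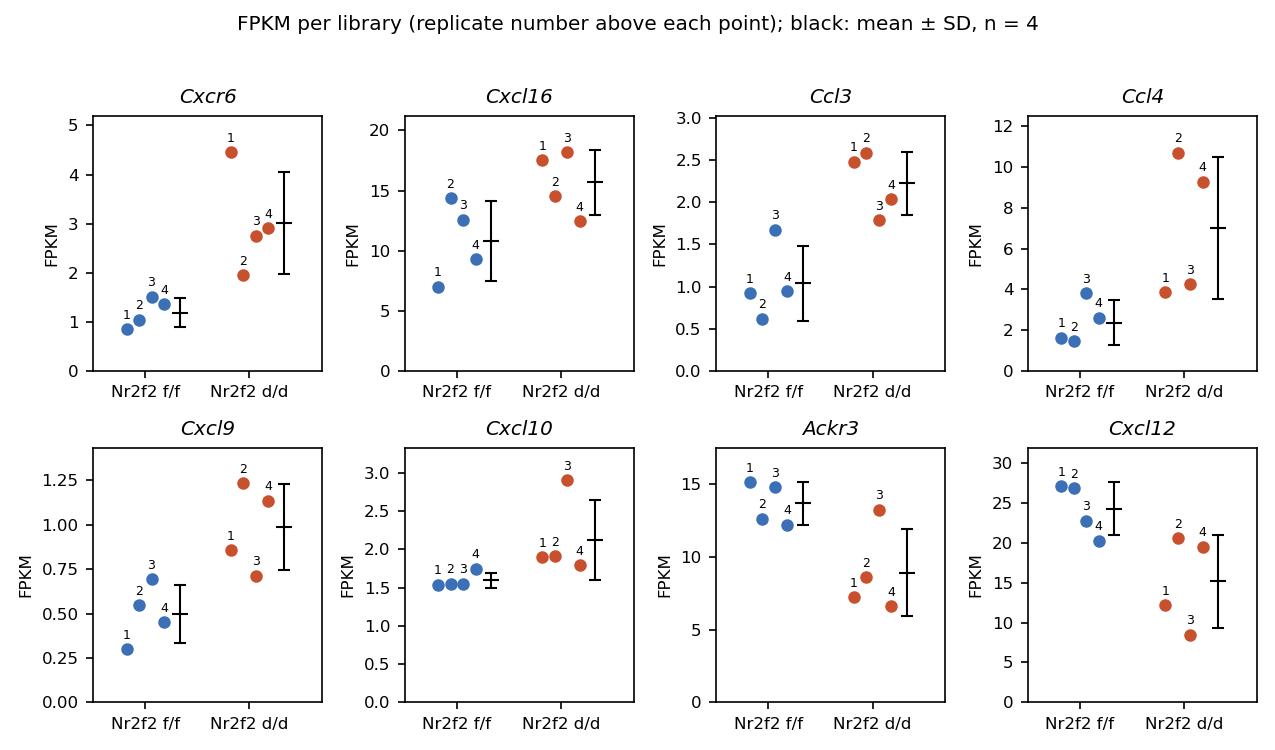
FPKM of 8 genes in each library, with the replicate number above each point and the mean ± SD (n = 4) in black. Cxcr6, Ccl3, Ccl4, Cxcl9 and Cxcl10 show no overlap between Nr2f2 f/f and Nr2f2 d/d, with 0.844 to 1.51 against 1.96 to 4.46 FPKM for Cxcr6, while Cxcl16, Ackr3 and Cxcl12 overlap in 1 or more libraries.

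None of the CC receptors tested passed the methods' threshold. Ccr2, the receptor of inflammatory monocytes, was at 14.7, 26.2, 17.1 and 15.0 FPKM in Nr2f2 f/f and at 15.9, 21.5, 10.2 and 29.3 in Nr2f2 d/d, with a log2 fold change of 0.02 ± 0.317 (SE, limma, adjusted p = 0.984). Ccr10, which binds CCL27 and CCL28, ran from 0.716 to 1.41 FPKM and from 0.811 to 1.38, with -0.01 ± 0.175 (SE). The other 7 CC receptors detected were under the filter. Of these Ccr3, the eosinophil receptor, was at 0.0440, 0.0990, 0.263 and 0.154 FPKM in Nr2f2 f/f and at 0.0590, 0.06, 0.0230 and 0.0300 in Nr2f2 d/d. Nr2f2 f/f replicate 1 lay within the mutant libraries and the other controls above them. The log2 fold change was -0.23 with no filter on low values and -0.67 with 0.1 added before the log2 (limma, adjusted p = 0.261 and 0.228). Of the eosinophil and mast cell markers, 3 of 5 tested were below 0 and 0 of 7 were listed at 0 throughout. The summed level of 15.0 to 22.4 FPKM in Nr2f2 f/f and 12.0 to 13.2 in Nr2f2 d/d was mostly Kit, while the eosinophil markers Siglecf, Epx and Prg2 overlapped between the groups, with Epx at 0 to 0.0180 and 0.00400 to 0.0260 FPKM. Their part in the values of Ccr3 was not tested.

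Of the remaining receptors, Cxcr4, the signaling receptor of CXCL12, was at 2.64, 5.74, 2.51 and 2.03 FPKM in Nr2f2 f/f and at 4.53, 3.11, 4.32 and 3.29 in Nr2f2 d/d. Nr2f2 f/f replicate 2 lay above all other libraries and the other controls below all mutant ones, and the log2 fold change was 0.29 ± 0.273 (SE, limma, adjusted p = 0.581). Without Nr2f2 f/f replicate 2, Cxcr4 passed the methods' threshold. Cx3cr1, a receptor of monocytes and macrophages, ran from 3.38 to 6.20 FPKM and from 3.53 to 5.91, with -0.08 ± 0.209 (SE, adjusted p = 0.854 in limma).

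Cxcr2, the neutrophil receptor, had a mean under the filter and was named after its values were seen. It was at 0.0470, 0.0480, 0.341 and 0.219 FPKM in Nr2f2 f/f, or 9, 9, 81 and 41 fragments, and at 0.867, 0.368, 1.06 and 0.387 in Nr2f2 d/d, or 163, 80, 299 and 107 fragments. The groups did not overlap (exact permutation p = 0.0286), with replicates 1 and 3 the highest of Nr2f2 d/d. The ratio of the means was 4.09. With no filter on low values the log2 fold change was 0.79 (limma, adjusted p = 0.139), and 1.60 with 0.1 in place of 0.5 added before the log2 (limma, adjusted p = 0.130). Neutrophil markers summed to 3.69 to 21.2 FPKM in Nr2f2 f/f and to 18.5 to 41.3 in Nr2f2 d/d, highest in the same replicates 1 and 3, with 3 of 4 tested above 0. Of these, S100a8 and S100a9 were higher and Retnlg was lower at the methods' threshold, and their part in the values of Cxcr2 was not tested.

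All 3 atypical receptors tested had a log2 fold change below 0, and Ackr3 passed the methods' threshold. Ackr3 (chr1:90203980-90216751, mm10, plus strand), which takes up CXCL12 and so limits its amount, was at 15.1, 12.6, 14.8 and 12.2 FPKM in Nr2f2 f/f and at 7.25, 8.59, 13.2 and 6.62 in Nr2f2 d/d. Nr2f2 d/d replicate 3 lay within the controls and the other 3 mutant libraries below them. The means were 13.7 ± 1.49 (SD, n = 4) and 8.93 ± 3.00, with a log2 fold change of -0.63 ± 0.199 (SE, limma, adjusted p = 0.128). Without Nr2f2 d/d replicate 3 it was -0.83 (limma, adjusted p = 0.0312), and the unadjusted p was under 0.05 in 8 of 8 fits that left out 1 library. Ackr1, which carries chemokines across venules, was at 5.99, 2.87, 3.20 and 2.51 FPKM and at 2.35, 2.28, 3.00 and 3.04, with -0.33 ± 0.234 (SE, adjusted p = 0.450 in limma). Nr2f2 f/f replicate 1 was the highest, and without it the log2 fold change was -0.09. Ackr4, which removes homeostatic ligands, ran from 3.60 to 7.11 FPKM and from 2.80 to 5.47, with -0.34 ± 0.241 (SE, adjusted p = 0.447 in limma). Exon bases are shared with other genes over 25.7% of Ackr1 (Cadm3) and 8.9% of Ackr4 (Acad11).

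Blood endothelial markers moved with Cxcl12 and Ackr3. All 6 were below 0, and 0 were listed at 0. An adjusted p under 0.05 (limma) was found for 4 (Pecam1, Cdh5, Kdr and Emcn), beside 2.62% of all genes. It held in 2 to 5 of the 8 fits that left out 1 library. The 6 markers summed to 169 to 240 FPKM in Nr2f2 f/f and to 98.2 to 122 in Nr2f2 d/d, without overlap. Within Nr2f2 d/d, replicate 3 had the highest endothelial sum and the highest Ackr3 but the lowest Cxcl12. The part of endothelial cells in these values was not tested.

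Ligands and receptors were also set side by side by known binding. Of 31 pairs among the genes reported here, 14 had both genes tested, and in 9 both log2 fold changes were above 0, in 2 both were below 0 and in 3 they had opposite signs. Both genes passed the methods' threshold in 2 pairs, Cxcl16 with Cxcr6, higher in Nr2f2 d/d, and Cxcl12 with Ackr3, lower in Nr2f2 d/d. For Cxcl12 and its other receptor Cxcr4, the log2 fold changes were -0.73 and 0.29. For Ccl3 and its receptor Ccr1 they were 0.86 and 0.30. Pairs share genes and are not independent of each other. Among the tested genes of the family, 72.7% of the ligands and 58.3% of the receptors were above 0. Pairs with Ccr2 (0.02 ± 0.317, SE) or Ccr10 (-0.01 ± 0.175) were sorted by a receptor change near 0. The sign of both turned when 1 library was left out.

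**Figure D4:**
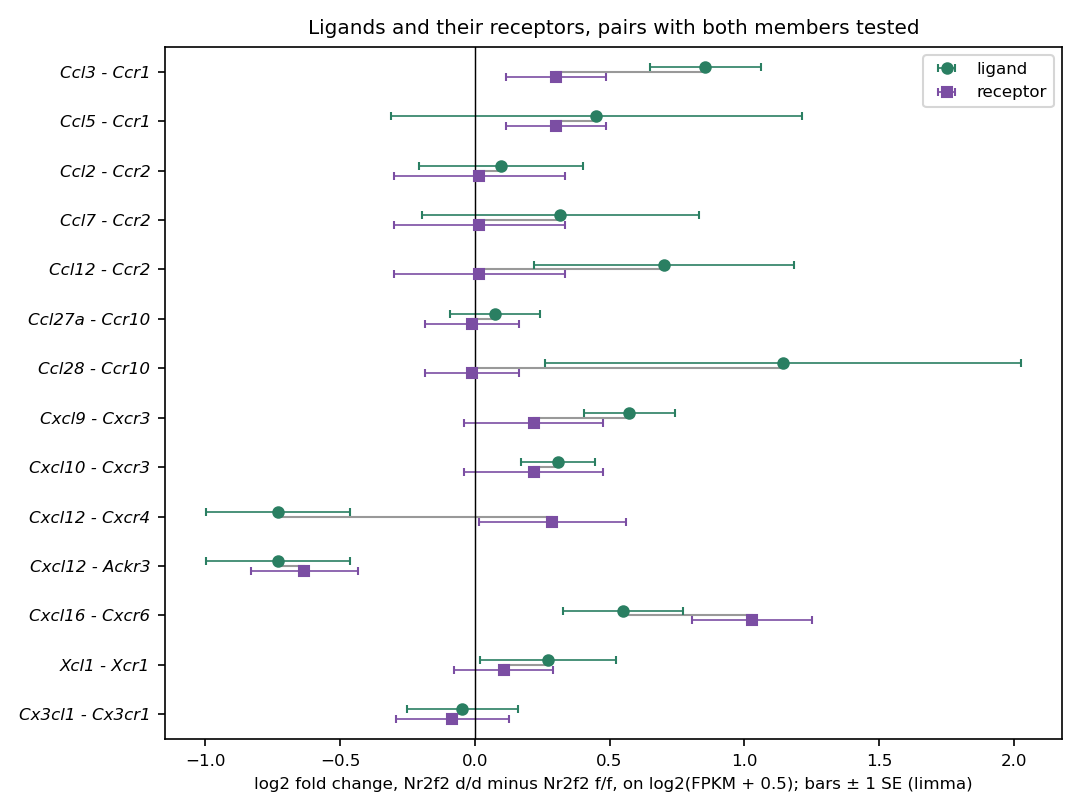
Log2 fold change (Nr2f2 d/d minus Nr2f2 f/f, on log2(FPKM + 0.5)) of ligand (circle) and receptor (square) in the 14 pairs with both genes tested, with bars of ± 1 SE (limma). Cxcl16 and Cxcr6 both lie right of 0 (0.55 and 1.03), Cxcl12 and Ackr3 both left of it (-0.73 and -0.63), and Cxcl12 and Cxcr4 on opposite sides.

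In the rest of the chemokine pathway, 47 genes were listed and 45 tested, with 27 above 0 and 18 below. An adjusted p under 0.05 (limma) was found for 2 of the 45, beside 2.62% of all genes. Both belong to the signal transduction genes and fell in Nr2f2 d/d. Whether they fell in cells that carry chemokine receptors was not tested. Rgs2, which switches off G protein signaling, fell from 138 to 174 FPKM in Nr2f2 f/f to 54.7 to 85.3 in Nr2f2 d/d (log2 fold change -1.18 ± 0.149, SE, limma, adjusted p = 0.0132), and Arrb1, a beta-arrestin that desensitizes receptors, from 19.6 to 25.9 to 11.3 to 16.2 (-0.65 ± 0.124, SE, adjusted p = 0.0398). When 1 library was left out, Rgs2 kept an adjusted p under 0.05 in 7 of 8 fits (0.0513 without Nr2f2 d/d replicate 1), and Arrb1 in the fit without Nr2f2 d/d replicate 3 alone, with up to 0.104 without Nr2f2 f/f replicate 1. At the methods' threshold 8.89% of the 45 genes passed, beside 8.8% of all genes. These were Rgs2 and Arrb1 and, higher in Nr2f2 d/d, Cmklr1, the receptor of chemerin (1.93 to 3.76 and 3.02 to 8.68 FPKM), and Cd74, the receptor of MIF and invariant chain of MHC class II (126 to 205 and 180 to 344 FPKM). Of the 32 signal transduction genes, 19 were above 0 and 13 below, and of the 7 tested genes of ligand processing and presentation, 3 were above and 4 below.

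**Figure D5:**
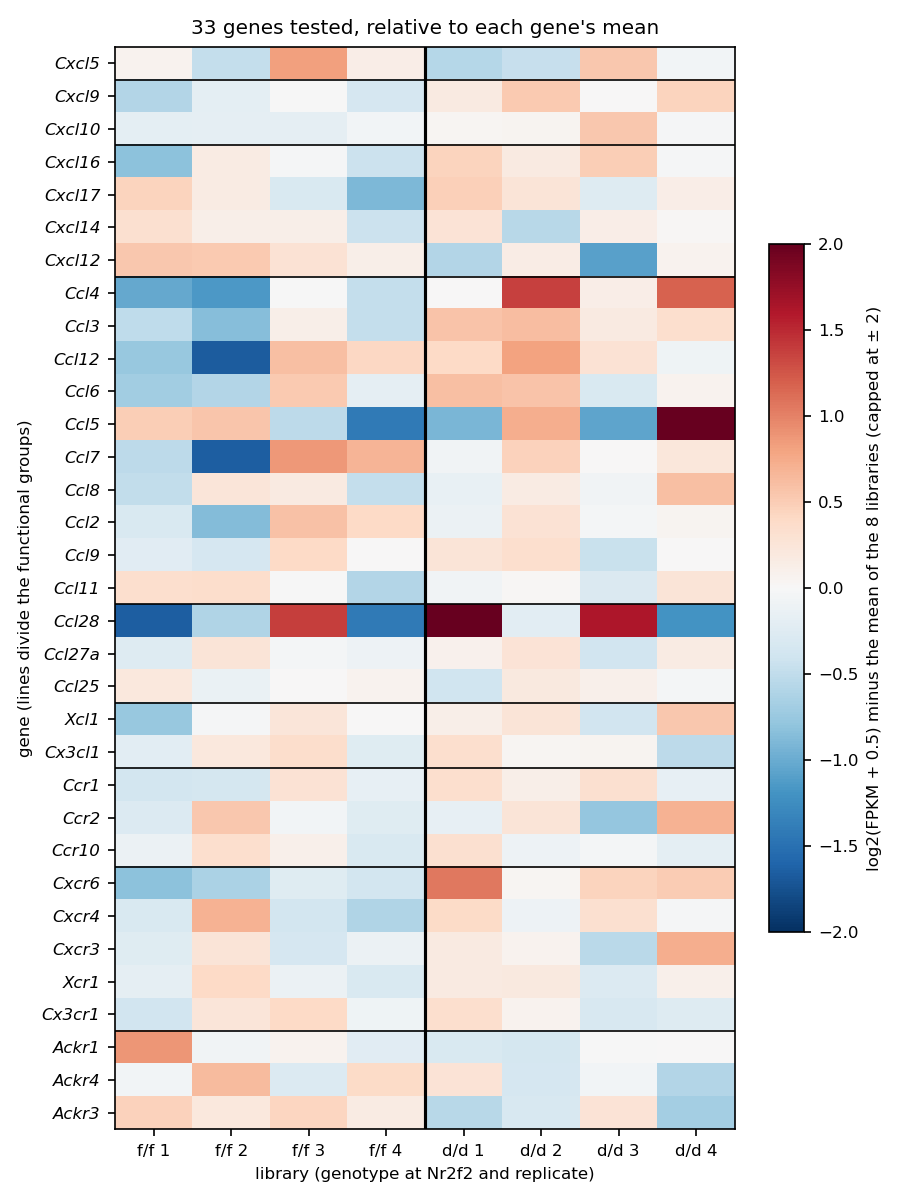
Level of 33 tested genes in each library as log2(FPKM + 0.5) minus the mean of the 8 libraries, with colour capped at ± 2 and lines dividing the roles. Nr2f2 f/f replicates 1 and 4 are mostly blue (9 and 7 of 34 genes above their own median), and Ccl5 in Nr2f2 d/d replicate 4 and Ccl28 in Nr2f2 d/d replicate 1 are the darkest red.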

How the data were processed

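RNA of whole uterine tissue was measured in 8 libraries, grouped by their labels into Nr2f2 f/f and Nr2f2 d/d with replicate numbers from the titles. The deposited values are FPKM. Per the methods of the study, the authors filtered 76-base paired reads at an average quality of 20, removed adaptors with cutadapt 1.12, aligned to mm10 with STAR 2.5.2b and counted fragments per gene with featureCounts 1.5.0-p1. The submitters' processing notes also name Cufflinks 2.0.2, with no role. Not given in the sources used here are the annotation of genes, whether counting used strand, and how FPKM were computed from the counts. FPKM are relative to the library total, and reads of near-identical or overlapping genes can be counted for the wrong gene. The authors' DESeq2 results were not used.

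Of the 61 symbols, 60 matched 1 gene of GENCODE release 21 for mouse, an annotation of mm10, for coordinates and exon length. Depth per library was found as the total at which short genes of 1 exon (up to 1000 bases) gave whole fragments: within 0.05 of a whole number, 71.6% to 75.6% of these values were whole, beside medians of 5.3% to 5.7% at other totals. Fragment numbers cover counting error only.

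FPKM were taken to log2 after adding 0.5. The 14323 genes whose mean reached 0.5 FPKM were tested two-sided over all 8 libraries with limma (3.58.1, under R 4.3.3) and its eBayes trend option, with Benjamini-Hochberg adjustment over all of them. Single genes were also compared by two-sided exact permutation tests over 70 arrangements. The fit was tested on simulated data. Tables were made with Python 3.11.15 and pandas 2.3.3. Libraries of a group correlated across genes with Pearson's r of 0.933 to 0.989, and at most 0.119% of their values were identical, so none was a copy of another.

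Values in every library are given for genes with an unadjusted p under 0.05, for tested genes whose groups do not overlap and, in full or as a range, for the 3 with the highest mean of each role list, except 1 gene, which is counted in the totals but not reported here. Ccl1, Ccl2, Ccl7, Ccl12, Ccl22, Ccr3, Cxcl11 and Cxcr2 were chosen after their values were seen, and Cxcr3 is given beside its ligands. The members, roles, pairs, pathway and marker lists and motifs were chosen with earlier results of these data known. Alternatives were adding 0.1 or 1 before the log2, no filter or one at a mean of 1 FPKM, scaling by median ratios, quantile normalization, robust eBayes or eBayes with no trend, a replicate block, and each library left out. The human cells, ChIP-seq and other mutants of the study were not analysed here.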

Additional observations from a re-analysis of the deposited data

Results flagged for a closer look

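In 66 groups of 4 libraries, 4 values of 3 genes lay apart from the rest of their group by more of the group's range than the critical value of Dixon's test, which chance passes in about 1 in 20 groups. Ccl28 was at 10.8 FPKM in Nr2f2 f/f replicate 3, while the other controls were at 0.889 to 2.38. Cxcl10 was at 1.74 FPKM in Nr2f2 f/f replicate 4, with the other controls at 1.54 to 1.55, and at 2.90 FPKM in Nr2f2 d/d replicate 3, with the other mutant libraries at 1.79 to 1.91. Cxcr4 was at 5.74 FPKM in Nr2f2 f/f replicate 2, with the other controls at 2.03 to 2.64.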

How the results depend on the processing

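The count of genes with an adjusted p under 0.05 was 0 and became 1 with no filter on low values (Ccl1), with median-ratio scaling and with quantile normalization (Cxcr6 in both), and ran from 0 to 1 when 1 library was left out. The count at the methods' threshold, 7, was 6 to 10 under the planned settings and 4 to 8 when 1 library was left out, lowest without Nr2f2 f/f replicate 1. With no filter and 0.1 added before the log2, where more genes enter, it was 12 of 55, beside 1983 of all 21070 genes. The median log2 fold change stayed above 0, from 0.12 to 0.29 under the other settings and from 0.06 to 0.24 when 1 library was left out. Ccr10 went to 0.0033 with median-ratio scaling. Over the fits that left out 1 library the sign turned for Ccr10 (-0.12 to 0.10), Ccr2 (-0.21 to 0.28), Cxcl14 (-0.22 to 0.11), Cx3cl1 (-0.16 to 0.12), Cx3cr1 (-0.22 to 0.0377), Ccl25 (-0.15 to 0.0477), Ccl27a (-0.0062 to 0.21) and Ccl5 (-0.19 to 0.88). The causes were not tested. Over all genes, the adjusted count of 375 ran from 42 to 348 when 1 library was left out, lowest without Nr2f2 d/d replicate 2.

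The replicate numbers of the titles do not pair the libraries: correlations of their deviations were -0.20, -0.17, 0.05 and -0.04, and for the numbers 1, 3 and 5 that the descriptions share, -0.20, 0.15 and -0.04. With a replicate block on the titles' numbers the family kept 7 genes at the methods' threshold and 0 at an adjusted p under 0.05, and with a block on the descriptions' numbers (6 libraries) it had 9 and 0, without Cxcl12 (-0.44) and Cxcl16 (0.62), whose unadjusted limma p were then 0.140 and 0.0530. Over all genes the adjusted count was 1 and 0. With the second block Ccr10 was at 0.11 and Cx3cr1 at 0.0768. The added fit with no filter and 0.1 added before the log2, the stromal sum without Col1a1 and the counts without genes that passed the filter through 1 group were chosen after seeing the data. With 4 libraries in each group and means under 0.5 FPKM for 21 of the 55 detected genes, differences in those genes were mostly not tested.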
